A study of Mus musculus with 9 samples.

Results

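The interleukin-1 (IL-1) genes described here were the 10 rows of the FPKM table whose gene name was Il1a, Il1b, Il1rn, Il1r1, Il1r2, Il1rap, Il18, Nlrp3, Il1bos or Gm14023, out of 54532 genes. All 10 were found, and 7 of them (all but Il18, Il1bos and Gm14023) were also among the 9877 genes of the count table. The RNA came from M-MDSCs (monocytic myeloid-derived suppressor cells, tumour-induced relatives of monocytes that dampen T cell responses) sorted from tumours of mice bearing MC38, a mouse colon carcinoma line. Each of 3 genotypes had 3 libraries: WT, LILRB4+/+ (called LILRB4 libraries) and LILRB4+/+ SCG2-/- (called SCG2 knockout libraries). The knockout group thus carried the LILRB4+/+ genotype as well. All 9 came from tumour-bearing mice. Nothing in the labels gives the nature of the LILRB4+/+ allele, how SCG2 was deleted, the age of the mice, the sorting gate or the mouse behind each library. The p-values therefore set a difference against the variation among libraries, part or all of which may be technical.

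IL-1 signalling starts from a pair of ligands, IL-1 alpha (Il1a) and IL-1 beta (Il1b), which bind the receptor IL1R1 together with its accessory chain IL1RAP and act through MyD88, IRAK kinases and TRAF6 on NF-kB. IL-1 beta and the related cytokine IL-18 are made as precursors that caspase-1 cleaves once an inflammasome, such as the one sensed by NLRP3, has assembled, whereas the IL-1 alpha precursor can already signal. The receptor antagonist (Il1rn) and the decoy receptor IL1R2 hold the pathway back. In tumours, myeloid cells are a known source of IL-1 beta, which is known for the recruitment of suppressive myeloid cells.

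Il1a and Il1b are neighbours on mouse chromosome 2 with 54597 bases between them, and each has a noncoding gene on the opposite strand (GRCm38). Il1a lies at chr2:129299610-129309972 on the minus strand and Gm14023, annotated as a processed transcript, at chr2:129297370-129307826 on the plus strand. Of the 1781 exon bases of Gm14023, 222 (12.5%) are antisense to an Il1a exon, all of them coding sequence of Il1a. A further 1452 bases (81.5%) lie in Il1a introns and 107 (6.01%) outside Il1a. Il1b lies at chr2:129364570-129371139 on the minus strand. Il1bos, annotated as antisense, lies at chr2:129369897-129375748 on the plus strand, starts inside Il1b and runs out past its 5′ end. Only 25 of its 2980 exon bases (0.839%) face an Il1b exon, one that carries no coding sequence in an isoform with a retained intron, and the other 2955 (99.2%) lie outside the Il1b gene. Libraries were directional, per the labels' protocols, but whether the counting used the strand is not given in the sources used here. Reads from the 2 strands therefore cannot be told apart over the 222 and 25 shared exon bases, nor unspliced Il1a RNA over the 1452 bases, and this applies to every value of Gm14023 and Il1bos below. These shared stretches, read on the plus strand from the GRCm38 transcripts, are shown because both strands have an exon there:
Gm14023 exon against Il1a exon, chr2:129306471-129306692: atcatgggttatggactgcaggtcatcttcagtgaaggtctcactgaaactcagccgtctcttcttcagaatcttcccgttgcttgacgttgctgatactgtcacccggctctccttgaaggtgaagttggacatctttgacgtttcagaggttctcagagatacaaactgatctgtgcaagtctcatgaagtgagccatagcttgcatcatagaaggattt
Il1bos exon against Il1b exon, chr2:129369897-129369921: agtctagaagcagattctgggccag

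The 150 bases before the RefSeq start of the 4 transcripts of these loci are shown because the 4 were all higher in the LILRB4 libraries than in WT ones without overlap in FPKM (below). They are on GRCm38.p6, each 5′ to 3′ on the gene's own strand, with capitals for matches to the letters searched for a TATA box, AP-1 or C/EBP, which are spelled out in the next paragraph:
Il1a, minus strand, chr2:129309973-129310122: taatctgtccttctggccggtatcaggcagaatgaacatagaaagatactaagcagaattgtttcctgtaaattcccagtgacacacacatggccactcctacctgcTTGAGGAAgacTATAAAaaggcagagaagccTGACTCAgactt
Il1b, minus strand, chr2:129371140-129371289: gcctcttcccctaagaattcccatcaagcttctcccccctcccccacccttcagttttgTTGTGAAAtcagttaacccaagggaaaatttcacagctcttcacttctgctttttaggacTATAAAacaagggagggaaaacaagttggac
Gm14023, plus strand, chr2:129297220-129297369: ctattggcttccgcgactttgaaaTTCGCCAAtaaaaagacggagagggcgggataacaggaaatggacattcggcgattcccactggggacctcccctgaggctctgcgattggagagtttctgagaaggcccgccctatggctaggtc
Il1bos, plus strand, chr2:129369752-129369901, inside the Il1b gene: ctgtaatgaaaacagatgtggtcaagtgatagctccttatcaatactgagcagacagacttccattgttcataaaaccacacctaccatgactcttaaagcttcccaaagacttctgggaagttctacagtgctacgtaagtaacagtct

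Both ligand genes had a TATAAA match close to the start, at positions -32 to -27 in Il1a and -31 to -26 in Il1b, counted from the base before the start as -1. In Il1a an AP-1 match (TGACTCA) stood at -12 to -6 and a C/EBP match (TTGAGGAA) at -43 to -36, which also holds GAGGAA, the letters searched for PU.1. In Il1b a C/EBP match (TTGTGAAA) stood at -91 to -84, and in Gm14023 a C/EBP match was read on the minus strand at -126 to -119. Il1bos held none of the 5 motifs searched. All 10 genes had a RefSeq promoter. Over 250 bases before the start, searched on both strands, TATAAA, the letters searched for a TATA box, was present in 3 of the 10 (Il1a, Il1b and Il18) and in 12.4% of 32817 RefSeq promoters. TGANTCA (AP-1) was present in 2 (Il1a and Il1rn) and in 6.75% of all, TTGNNNAA (C/EBP) in 7 and 33.3%, GAGGAA in 1 (Il1a) and 23.3%, and GGGNNNTTCC, the letters searched for NF-kB, in 0 and 4.65%. The RefSeq start of Il1r2 lies 12014 bases from the start in the deposited table, so its window belongs to another transcript start. A match is a run of letters and no evidence of binding.

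Total counts per library were 14501163 to 27219202 in the count table. Scg2 itself had 1 read in each of 2 libraries (WT replicate 1 and LILRB4 replicate 1) and 0 in the remaining 7, and its level therefore checks no label. Lilrb4a ranged from 47.7 to 138 FPKM in WT, 154 to 274 in LILRB4 and 131 to 157 in SCG2 knockout libraries. The 12 monocyte markers summed to 1256 to 3425 FPKM in WT, 2381 to 3464 in LILRB4 and 1273 to 2661 in SCG2 knockout libraries. Cd14 had the highest mean of them, at 1651, 2274 and 1157 FPKM in that order. Cd14, Plac8 and Csf1r were at 61.6 FPKM or more in every library. Lyz2 was 11.4 to 18.6 FPKM in LILRB4, 11.8 to 109 in WT and 252 to 849 in SCG2 knockout libraries. Ly6c2 (mean 67.9 in WT and 49.6 in LILRB4), Fcgr1 (43.2 and 38.1), Ms4a4c (40.9 and 33.2), Plac8 (204 and 190), Ccr2 (27.3 and 26.0) and Lyz2 had lower means in LILRB4 than in WT. The other markers of this list had higher ones. The 12 T and NK cell markers were all detected and summed to 74.2 to 266, 67.3 to 408 and 246 to 427 FPKM in the same order of WT, LILRB4 and SCG2 knockout, lowest in WT replicates 2 and 3 and LILRB4 replicate 2. Fewer cells of a type and less RNA per cell cannot be told apart in these bulk samples.

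On the FPKM scale, which is per length, Il1b was the highest of the 10 genes in every library, at 800 to 3007 FPKM, and Il1a the next, at 104 to 717. Nlrp3 and Il1rn followed at 54.3 to 224 and 68.2 to 177 FPKM with overlapping ranges, and then the decoy receptor Il1r2 at 33.7 to 67.5. The signalling receptor Il1r1 (2.02 to 3.71 FPKM), its partner Il1rap (4.36 to 6.83) and Il18 (2.77 to 8.99) were low, in the range of the noncoding genes Il1bos (1.35 to 6.41) and Gm14023 (2.50 to 21.4). Per length, both ligand genes were thus above all 3 receptor genes in every library.

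**Figure D1:**
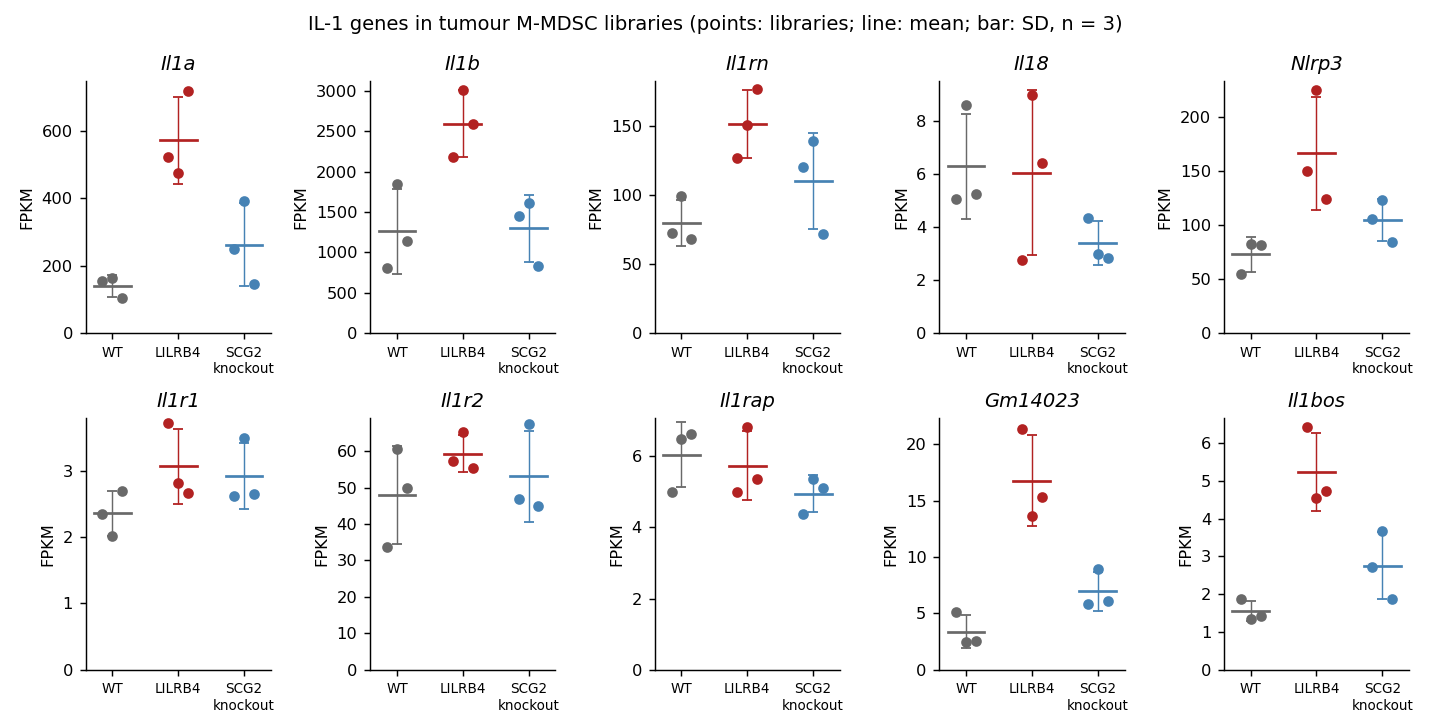
FPKM (y axis, linear from 0) of the 10 IL-1 genes in WT, LILRB4 and SCG2 knockout libraries (x axis). Points are libraries, the line is the group mean and the bar the SD (n = 3). The LILRB4 points lie above all WT points for Il1a, Il1b, Il1rn, Nlrp3, Il1bos and Gm14023, and the groups overlap for Il1r1, Il1r2, Il1rap and, between LILRB4 and WT, for Il18.

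With LILRB4+/+, the ligand gene Il1a and the inflammasome sensor Nlrp3 rose against WT in the count table, and the noncoding gene Gm14023 rose in the FPKM table. In FPKM, 6 of the 10 genes were higher in every LILRB4 library than in every WT library, and 0 were lower. Over all 19318 genes with at least 0.1 FPKM in 3 libraries, 10% were higher and 10.7% lower without overlap. By edgeR's quasi-likelihood test with Benjamini-Hochberg adjustment (edgeR adjusted p, threshold 0.05) on the deposited counts, 2 of 7 genes rose and 0 fell, against 1.73% and 0.516% of all 9877 genes. Each of these 9877 genes had at least 100 reads in LILRB4 replicates 1 and 3. The 7 genes and these shares are thus limited to genes above that level in LILRB4 libraries. By limma on log2(FPKM + 1), 1 of 10 rose (0.166% of 19318 genes) and 0 fell, and by edgeR on counts recovered from FPKM 3 of 10 rose (Il1a, Gm14023 and Il1bos; 0.813% of 15743 genes) and 0 fell (0.0572%).

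Il1a was at 154, 164 and 104 FPKM in WT replicates 1 to 3, at 522, 475 and 717 in LILRB4 and at 250, 392 and 146 in SCG2 knockout libraries. Every LILRB4 library stood above every other library, while the knockout range began inside the WT range. Means were 141 ± 32.6, 571 ± 128 and 262 ± 123 FPKM (SD, n = 3 each), a 4.06-fold higher mean in LILRB4 than in WT. The log2 fold change in the count table was 1.99 (SE 0.34, edgeR adjusted p = 0.0269), and 2.01 with recovered counts (SE 0.33, edgeR adjusted p = 0.028). Leaving out each library in turn kept the difference at 1.80 to 2.13, and the call was lost without WT replicate 1, 2 or 3 or LILRB4 replicate 1 or 3 (edgeR adjusted p at most 0.129).

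Il1b was at 800, 1840 and 1138 FPKM in WT, at 2180, 3007 and 2595 in LILRB4 and at 1451, 1613 and 826 in SCG2 knockout libraries. The LILRB4 libraries were the highest 3 of the 9, and all knockout values lay inside the WT range. The means were 1259 ± 530, 2594 ± 414 and 1296 ± 415 FPKM (SD, n = 3 each), 2.06-fold apart between LILRB4 and WT. This difference did not pass the test from either table. The log2 fold change was 1.38 with deposited counts (SE 0.34, edgeR adjusted p = 0.0599) and 1.03 with recovered counts (SE 0.33, edgeR adjusted p = 0.136). DESeq2 on the deposited counts put it past the threshold (adjusted p = 0.000684), as did edgeR without LILRB4 replicate 2 (adjusted p = 0.0478). Both calls include the deposited count of LILRB4 replicate 1, 138311 reads against 68311 recovered from FPKM. With recovered counts 0 of 9 leave-outs passed (lowest edgeR adjusted p = 0.109).

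For Il1b and the decoy receptor gene Il1r2 the 2 deposited tables did not hold the same reads. The FPKM values multiplied by gene length and by 1 constant per library gave whole numbers (within 0.01) for 100% of values, and these recovered counts equalled the deposited counts for all but 47 of 9877 genes. The differing values lay mostly in LILRB4 replicate 1, with 41, against 5 in WT replicate 2 and at most 3 in any other library. The edgeR test on deposited counts includes LILRB4 replicate 1. Il1b in LILRB4 replicate 1 had 138311 reads in the count table and 68311 by the FPKM table, exactly 70000 apart, with 8 of 9 libraries equal. Il1r2 had 1800 reads in WT replicate 2 and 2775 in LILRB4 replicate 1 in the count table, and by the FPKM table the same 2 numbers stood the other way round, 2775 in WT and 1800 in LILRB4. Both departures make the LILRB4 to WT difference larger in the count table. The files do not say how they arose, and the FPKM values quoted here go with the recovered counts.

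**Figure D2:**
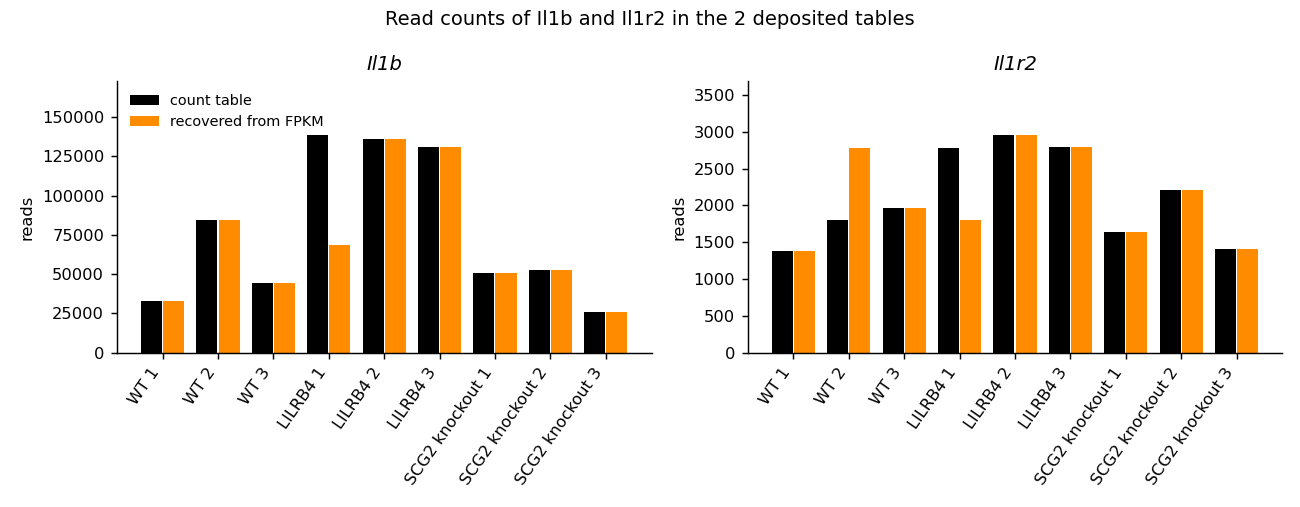
Reads (y axis, linear from 0) of Il1b and Il1r2 in each of the 9 libraries (x axis), from the count table (black) and recovered from FPKM (orange). The bars differ only in LILRB4 replicate 1 for Il1b (138311 against 68311) and in WT replicate 2 and LILRB4 replicate 1 for Il1r2, where 1800 and 2775 trade places.

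Il1rn, which encodes the receptor antagonist, was at 72.3, 99.3 and 68.2 FPKM in WT, at 127, 151 and 177 in LILRB4 and at 120, 139 and 71.7 in SCG2 knockout libraries. The LILRB4 libraries lay above all WT libraries, and the knockout libraries reached into both groups. The mean was 1.90-fold higher in LILRB4 than in WT, and the log2 difference, 0.90 with an SE of 0.25, did not pass (edgeR adjusted p = 0.0802). Agonist to antagonist RNA, the ratio of summed Il1a and Il1b FPKM to Il1rn FPKM, was 13.2 to 20.2 in WT, 18.7 to 23.1 in LILRB4 and 13.6 to 14.4 in SCG2 knockout libraries. The knockout ratios lay below all LILRB4 ratios, with group means of 14 and 21. The exact two-sided permutation test gave p = 0.1, the smallest that 3 against 3 allows, and 0.72 after Benjamini-Hochberg adjustment over the 18 ratio comparisons made. Il1b to Il1a ratios were 5.18 to 11.2, 3.62 to 6.33 and 4.12 to 5.81 in WT, LILRB4 and knockout libraries and overlapped in all 3 comparisons.

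The receptor genes differed little. Il1r1, the signalling receptor, was at 2.34, 2.02 and 2.70 FPKM in WT, at 3.71, 2.81 and 2.67 in LILRB4 and at 2.61, 3.50 and 2.64 in SCG2 knockout libraries, and the groups overlapped. Its log2 fold change between LILRB4 and WT was 0.35 (SE 0.19, edgeR adjusted p = 0.305). Il1rap, the accessory chain, was at 4.99, 6.49 and 6.63 FPKM in WT, at 5.0, 6.83 and 5.35 in LILRB4 and at 4.36, 5.37 and 5.10 in SCG2 knockout libraries. It too overlapped everywhere, at a log2 difference of -0.11 between LILRB4 and WT (SE 0.16, edgeR adjusted p = 0.719). Il1rap to Il1r1 ratios of 1.53 to 1.93 in knockout libraries lay below the 2.13 to 3.22 of WT (exact two-sided permutation p = 0.1, the smallest possible, adjusted 0.72).

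Il1r2, the decoy receptor, was at 33.7, 60.5 and 49.9 FPKM in WT, at 57.4, 65.1 and 55.4 in LILRB4 and at 47.0, 67.5 and 44.9 in SCG2 knockout libraries. The groups overlapped in every comparison, and a knockout library was the highest of the 9. The log2 fold change between LILRB4 and WT was 0.74 with deposited counts (SE 0.22, edgeR adjusted p = 0.0874) but 0.29 with recovered counts (SE 0.22, edgeR adjusted p = 0.475), and neither passed. DESeq2 on the deposited counts alone put it past the threshold (adjusted p = 0.0225), and those counts include the 2 values that trade places between the tables. Il1r2 to Il1r1 ratios were 14.4 to 29.9 in WT, 15.5 to 23.2 in LILRB4 and 17.0 to 19.3 in knockout libraries.

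Nlrp3, the inflammasome sensor, was at 54.3, 82.5 and 81.2 FPKM in WT, at 150, 224 and 124 in LILRB4 and at 106, 123 and 84.5 in SCG2 knockout libraries. The 3 groups did not overlap at all, with WT lowest, knockout between and LILRB4 highest, although the highest knockout and lowest LILRB4 library (123 and 124 FPKM) nearly met. The mean was 2.28-fold higher in LILRB4 than in WT, and with deposited counts the log2 difference, 1.16 with an SE of 0.24, passed (edgeR adjusted p = 0.0371). With recovered counts, where more genes were tested, it was 1.18 and missed (SE 0.25, edgeR adjusted p = 0.0542). Without 1 library at a time it was 0.90 to 1.35, and 2 of 9 leave-outs kept the call.

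Il18 was at 5.06, 8.59 and 5.23 FPKM in WT, at 2.77, 8.99 and 6.41 in LILRB4 and at 4.35, 3.0 and 2.84 in SCG2 knockout libraries. All 3 knockout values were below all WT values, while the LILRB4 values spanned both. It is the only one of the protein-coding genes here outside the count table, which held no gene with fewer than 100 reads in LILRB4 replicate 1 or 3, and Il18 had 47 recovered reads in LILRB4 replicate 1. By limma on log2(FPKM + 1) the difference was -0.13 between LILRB4 and WT (SE 0.34, limma adjusted p = 0.886) and -0.71 between SCG2 knockout and WT (SE 0.34, limma adjusted p = 0.442).

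Gm14023, the noncoding gene across Il1a, was at 5.10, 2.50 and 2.54 FPKM in WT, at 21.4, 13.6 and 15.3 in LILRB4 and at 5.80, 8.98 and 6.09 in SCG2 knockout libraries. The groups did not overlap, in the same order as for Nlrp3. Means were 3.38 ± 1.49, 16.8 ± 4.07 and 6.96 ± 1.76 FPKM (SD, n = 3 each), a 4.97-fold higher mean in LILRB4 than in WT. These values rest on 93 to 195, 577 to 723 and 178 to 274 recovered reads per library. On the log2(FPKM + 1) scale, which understates changes of low genes, the difference was 2.05 (SE 0.26, limma adjusted p = 0.0317), and with recovered counts 2.29 (SE 0.31, edgeR adjusted p = 0.0204). In limma only the leave-outs of WT replicate 1 and LILRB4 replicate 2 kept the call, with differences of 1.87 to 2.31 over all 9 leave-outs and adjusted p up to 0.165. With recovered counts 5 of 9 leave-outs kept it.

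Il1bos, the noncoding gene that starts inside Il1b, was at 1.86, 1.35 and 1.43 FPKM in WT, at 6.41, 4.55 and 4.73 in LILRB4 and at 2.72, 3.66 and 1.88 in SCG2 knockout libraries. Again no group overlapped another, with the lowest knockout library just above the highest WT one. Recovered reads were 88 to 119, 314 to 373 and 92 to 187 per library, and the mean was 3.37-fold higher in LILRB4 than in WT. The log2 difference of 1.28 missed the threshold in limma (SE 0.20, limma adjusted p = 0.0518), while the count model on recovered reads gave 1.74 and passed (SE 0.27, edgeR adjusted p = 0.023, kept by 5 of 9 leave-outs).

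The ratio of each noncoding gene to the coding gene opposite it overlapped between genotypes. Gm14023 made 1.52 to 3.31 FPKM per 100 FPKM of Il1a in WT, 2.14 to 4.09 in LILRB4 and 2.29 to 4.17 in SCG2 knockout libraries, and these ranges overlapped in all 3 comparisons. Il1bos made 0.736 to 2.33 FPKM per 1000 FPKM of Il1b in WT, 1.51 to 2.94 in LILRB4 and 1.87 to 2.28 in knockout libraries, also overlapping. The exact two-sided permutation p-values of these 6 comparisons were 0.4 to 1. Correlations over the 9 libraries, which differ in depth and genotype, are given as a description. The Pearson correlation of log2(FPKM + 1) was 0.91 between Gm14023 and Il1a, 0.71 between Il1bos and Il1b, and 0.94 between Il1bos and Il1a. WT replicate 2 had the highest Il1b of the WT libraries (1840 FPKM) and the lowest Il1bos (1.35).

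**Figure D3:**
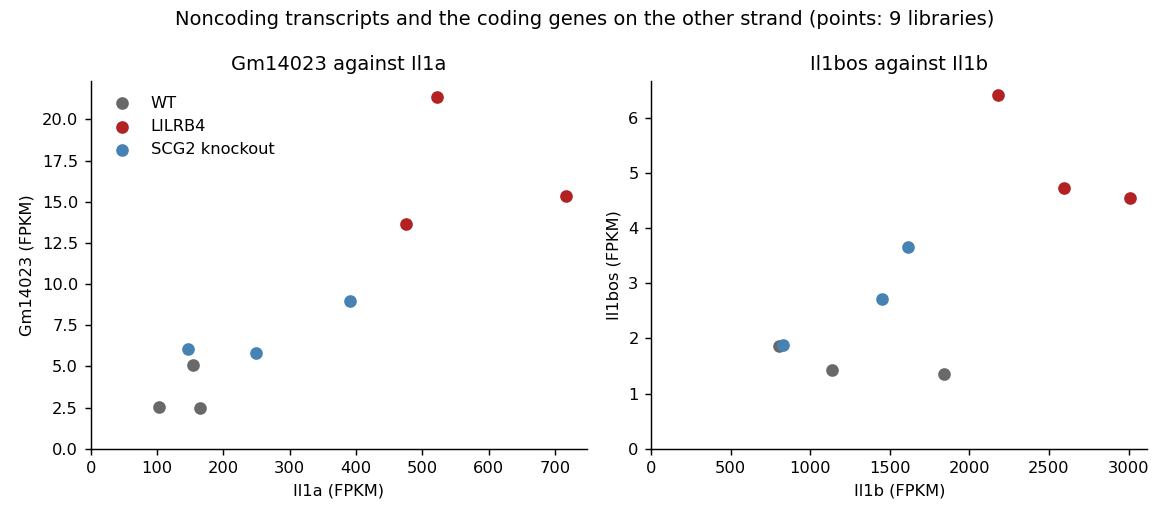
FPKM of Gm14023 against Il1a (left) and of Il1bos against Il1b (right), both axes linear from 0, 1 point per library coloured by genotype. LILRB4 libraries lie at the upper right of both panels, and WT replicate 2 has 1840 FPKM of Il1b with 1.35 of Il1bos.

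Markers of other cells moved with these genes in part. The 12 neutrophil markers (Il1r2, itself a neutrophil marker, left out) summed to 44.1 to 81.8 FPKM in WT, 88.1 to 236 in LILRB4 and 39.7 to 54.7 in SCG2 knockout libraries, highest in LILRB4 without overlap. Retnlg, at a mean of 23.2, 93.1 and 21.4 FPKM, made up 40.9%, 63.7% and 45.2% of the mean sum in WT, LILRB4 and SCG2 knockout libraries. Of the 12 genes, 10 had a higher mean in LILRB4 than in WT, among them S100a8 (mean FPKM 2.39 in WT and 7.56 in LILRB4), Mmp8 (3.31 and 6.14), Hdc (4.0 and 9.75) and Cxcr2 (0.0728 and 0.381), and 2 a lower one (Ly6g and Camp). In SCG2 knockout libraries 11 of the 12 had a lower mean than in LILRB4. S100a8, Mmp8 and Mmp9 of this list are among the 47 genes whose deposited and recovered counts differ, as are Cd14 and Ly6c2 of the monocyte list. The marker values given here are FPKM. The highest values in any library were 17.2 FPKM for S100a9 and 18.0 for Csf3r, against 1.48 for Camp, 1.48 for Ltf and 4.38 for Ngp, and Ly6g was at 0 in all LILRB4 libraries and at most 0.198 FPKM elsewhere. Without LILRB4 replicate 2, the library with the highest neutrophil sum (236), the log2 fold changes against WT were 2.13 for Il1a (edgeR adjusted p = 0.0209) and 0.90 for Nlrp3 (edgeR adjusted p = 0.0408), and the sums of the LILRB4 libraries left (88.1 and 114) were still above all WT sums. Dendritic cell markers summed to 127 to 201 FPKM in SCG2 knockout and 63.9 to 108 in WT libraries, and endothelial markers to 8.28 to 10.03 and 5.14 to 7.44, both without overlap, as was the case for Nlrp3, Il1bos and Gm14023 in that comparison. The dendritic cell sum was largely Ccr7 (mean 50.7 in WT and 101 in knockout) and Ccl22 (14.7 and 31.7). Of that list, only Cd209a (4.85 and 2.51) and Batf3 (1.78 and 1.54) had a lower mean in the knockout. The endothelial sum was largely Pecam1 (3.92 and 6.52), and only Emcn (0.193 and 0.179) had a lower mean. The part of any of these cell types in the differences was not tested.

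Between SCG2 knockout and LILRB4 libraries, both LILRB4+/+, the means of both ligand genes, Nlrp3 and both noncoding genes were lower in the knockout, but none passed the test. In FPKM 5 of the 10 (Il1a, Il1b, Nlrp3, Il1bos and Gm14023) were lower in every knockout library, against 7.95% of 19318 genes, and 0 were higher, against 6.17%. With edgeR on deposited counts 0 of 7 passed in either direction (0% of 9877 genes each way), 3 of 7 had an unadjusted p under 0.05 (11.1% of all genes), and DESeq2 called 2 lower (1.77% of 9876 genes). The deposited log2 fold changes were -1.08 for Il1a (SE 0.33, edgeR adjusted p = 0.318), -1.31 for Il1b (SE 0.34, edgeR adjusted p = 0.256) and -0.61 for Nlrp3 (SE 0.24, edgeR adjusted p = 0.392). With recovered counts Il1b was at -0.98 (SE 0.33, edgeR adjusted p = 0.461). Gm14023 was at -1.16 (SE 0.26, limma adjusted p = 0.321) and Il1bos at -0.75 (SE 0.20, limma adjusted p = 0.4), where 0 of 10 passed limma and 5 of 10 had an unadjusted p under 0.05, against 8.13% of all genes (0.0104% of 19318 genes passed as higher and 0.0207% as lower). Mean levels in the knockout were 0.459 times those of LILRB4 for Il1a, 0.50 for Il1b, 0.629 for Nlrp3, 0.526 for Il1bos and 0.414 for Gm14023. Of the other genes, Il1rn was at -0.41, Il1r1 at -0.01, Il1r2 at -0.33 and Il1rap at -0.15 on the log2 scale with deposited counts. The mean of Il18 was 0.561 times that of LILRB4, with overlapping libraries (log2 difference -0.59, SE 0.34, limma adjusted p = 0.687). This comparison and the one with WT share the LILRB4 libraries, so opposite signs between them are not independent.

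Between SCG2 knockout and WT libraries 0 of 7 genes passed edgeR on deposited counts (0% of 9877 genes each way, 2 of 7 at an unadjusted p under 0.05 against 14.6% of all genes, 0 by DESeq2) and 0 of 10 passed limma (3 of 10 at an unadjusted p under 0.05 against 11.7%). In FPKM, 3 of the 10 (Nlrp3, Il1bos and Gm14023) were higher in every knockout library, against 10.6% of 19318 genes, and 1 (Il18) was lower, against 9.21%. Il1a stood at 0.92 on the log2 scale (SE 0.33, edgeR adjusted p = 0.317) and Il1b at 0.07 (SE 0.34, edgeR adjusted p = 0.932), a difference whose sign turned in some leave-outs. The knockout mean of Il1b was thus close to that of WT, and whether the 2 ligand genes differed here was tested only by their ratio, which overlapped. Nlrp3 was at 0.55 (SE 0.24, edgeR adjusted p = 0.334) and Gm14023 at 0.89 (SE 0.26, limma adjusted p = 0.423).

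**Figure D4:**
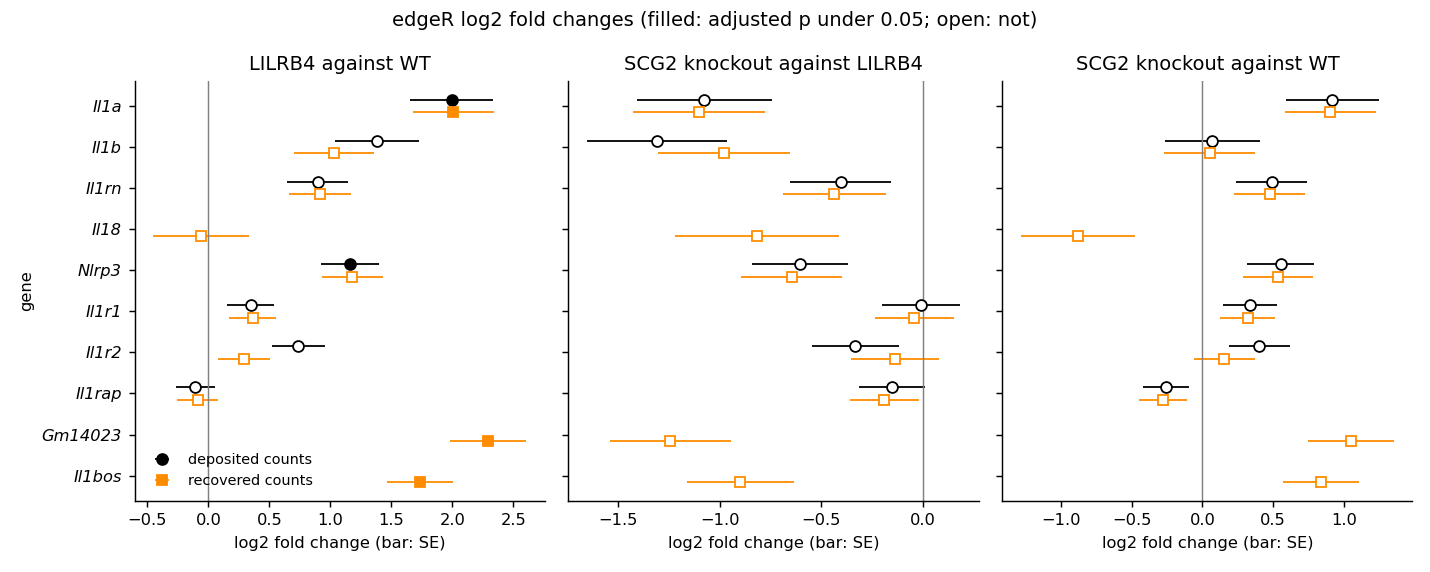
Log2 fold changes (x axis, bars are SE) of the 10 IL-1 genes (y axis) in the 3 comparisons, by edgeR on deposited counts (circles) and on counts recovered from FPKM (squares), filled where the adjusted p is under 0.05. Filled symbols occur only between LILRB4 and WT, for Il1a, Nlrp3, Gm14023 and Il1bos, and the circle and square lie apart for Il1b and Il1r2.

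Beyond these genes, other parts of the IL-1 pathway were read from lists. Of the genes known to respond to IL-1, 9 of 22 tested rose with LILRB4+/+ in the count table and 0 fell, against 1.73% and 0.516% of all genes, with a median log2 fold change of 0.91 against -0.02 for all genes. The largest were Csf3 (granulocyte colony-stimulating factor, 2.87, SE 0.44), the neutrophil-attracting chemokines Cxcl3 (2.21, SE 0.39), Cxcl2 (1.76, SE 0.28) and Cxcl1 (1.39, SE 0.29), Il6 (1.57, SE 0.25) and Ptgs2 (the inducible cyclooxygenase, 1.5, SE 0.23). Their edgeR adjusted p-values were 0.0214 to 0.0382. Il6 is among the 47 genes that differ between the tables and passed from both (1.78 with recovered counts, edgeR adjusted p = 0.0242). Most of these genes respond to other NF-kB stimuli too, so the list does not single out IL-1. The count ran from 0 (without any of WT replicates 1 to 3, LILRB4 replicate 1 or LILRB4 replicate 3) to 14 (without LILRB4 replicate 2) of the genes tested, and was 5 without SCG2 knockout replicate 2.

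Receptor-proximal signalling genes rose in 4 of 20 cases in the count table and 0 fell, against 1.73% and 0.516% of all genes. The list median was 0.30, against -0.02 for all genes. The 4 were the ubiquitin ligase Peli1 (1.11, SE 0.25), Irak3 (a brake on IRAK signalling, 0.99, SE 0.22), the kinase Irak2 (0.78, SE 0.15) and the adaptor Traf6 (0.70, SE 0.15), with edgeR adjusted p of 0.0324 to 0.0473. With recovered counts only Irak2 passed, and without 1 library at a time 0 to 6 did (0 without any WT library, LILRB4 replicate 1, LILRB4 replicate 3 or SCG2 knockout replicate 2, 2 without SCG2 knockout replicate 1, 6 without LILRB4 replicate 2). Of 23 other inflammasome and maturation genes, 0 passed edgeR (median 0.05) and 5 had an unadjusted p under 0.05, against 22.6% of all genes. The smallest p-values of this list belonged to Mefv (0.51, SE 0.14, edgeR adjusted p = 0.0802) and Nlrc4 (0.66, SE 0.19, edgeR adjusted p = 0.0836). Casp1, which cleaves the IL-1 beta precursor, was at -0.02 (SE 0.20, edgeR adjusted p = 0.954). Of 6 other ligands, receptors and soluble inhibitors of the family 0 passed edgeR and 2 had an unadjusted p under 0.05, with a median of 0.22 that was 0.73 over the 8 genes of the recovered counts. The smallest p-values were those of the IL-36 receptor Il1rl2 (0.63, SE 0.20, edgeR adjusted p = 0.107) and the IL-18 receptor chain Il18rap (0.80, SE 0.39, edgeR adjusted p = 0.257).

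In neither comparison with the SCG2 knockout did a gene of these 4 lists pass edgeR on deposited or recovered counts. Of the 71 genes tested with deposited counts, 17 had an unadjusted p under 0.05 against LILRB4, where 11.1% of all genes did, and 24 against WT, where 14.6% did. Between SCG2 knockout and LILRB4 the list medians were -0.23 (response genes), -0.16 (receptor-proximal), -0.28 (inflammasome) and 0.34 (other family genes; 0.09 over the 8 genes of the recovered counts), against 0.03 for all genes. The smallest p-values among them belonged to Cxcl2 (-1.13, SE 0.27, edgeR adjusted p = 0.235) and Bcl3 (-0.82, SE 0.21, edgeR adjusted p = 0.244), to Irak2 (-0.64, SE 0.15) and Irak3 (-0.88, SE 0.22), both with an edgeR adjusted p of 0.235, to Mefv (-0.70, SE 0.14, edgeR adjusted p = 0.235) and Ninj1 (-0.73, SE 0.28, edgeR adjusted p = 0.383), and to Il1rl1 (0.44, SE 0.18, edgeR adjusted p = 0.411) and Il1rl2 (-0.46, SE 0.20, edgeR adjusted p = 0.433). Between SCG2 knockout and WT the medians were 0.62, 0.16, -0.15 and 0.21 in the same order, against 0.00 for all genes, and the last was 0.64 over the 8 genes of the recovered counts. Il6 (1.13, SE 0.25), Nfkbiz (0.70, SE 0.17), Peli1 (0.89, SE 0.25), Tab3 (0.63, SE 0.21) and the IL-18 receptor chain Il18rap (1.21, SE 0.39) each had an edgeR adjusted p of 0.317, and Il18r1 (2.01, SE 0.82) of 0.334. Aim2 (0.56, SE 0.27, edgeR adjusted p = 0.361) and Panx1 (0.28, SE 0.14, edgeR adjusted p = 0.374) had the smallest p of the inflammasome genes. Both IL-18 receptor chains are expressed by T and NK cells, whose markers summed to 246 to 427 FPKM in knockout and 74.2 to 266 in WT libraries, and the part of these cells was not tested.

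**Figure D5:**
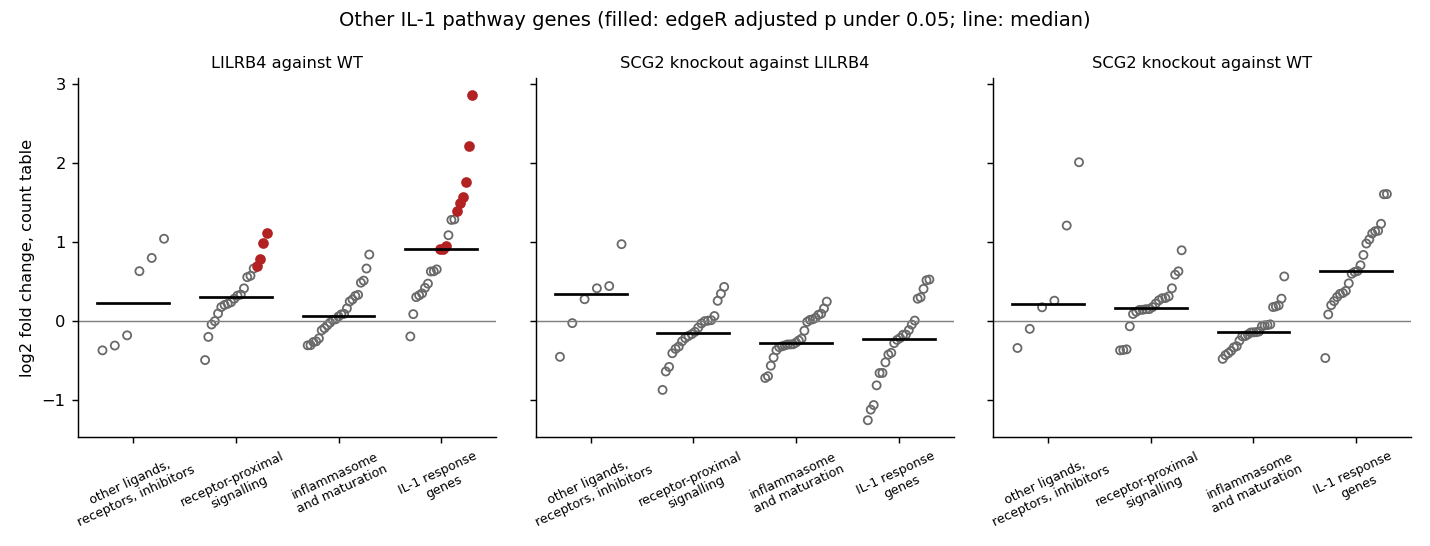
Log2 fold changes with deposited counts (y axis) of the other IL-1 pathway genes, 1 point per gene, in 4 lists (x axis) and the 3 comparisons (panels). Filled points have an edgeR adjusted p under 0.05 and the line is the list median. Filled points occur only between LILRB4 and WT, 9 among the response genes and 4 in receptor-proximal signalling.

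Genes whose levels followed these genes most closely over the 9 libraries were found by the Pearson correlation of log2(FPKM + 1) among 12424 genes with a mean of 1 FPKM or more, as a description. Il1a was followed by Tnf (0.984), Tnfrsf26 (0.983), Il10 (0.981), Cdyl (0.974) and Csf3 (0.972). Il1b was followed by another set, Rap1b (0.980), Cd44 (0.979), Papss2 (0.972), Smox (0.972) and Clec4d (0.966), and its correlation with Il1a was 0.81. Nlrp3 was followed by Olr1 (0.968), Osbpl8 (0.962), Aplp2 (0.957), Zc3h12a (0.955) and Lifr (0.950), and Il1r2 by Nrg1 (0.915), Syap1 (0.915), Tiparp (0.909), Serinc1 (0.905) and Stt3a (0.898). With Spearman ranks 3, 1, 0 and 0 of the 5 genes of Il1b, Il1a, Il1r2 and Nlrp3 were again among the top 5, so these names depend on the measure. Genotype, depth and marker sums differed among the 9 libraries, and their part in these correlations was not tested.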

How the data were processed

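Reads of 9 poly-A libraries were processed by the submitters. Per the submitters' processing notes, their tools were HISAT2 2.0.5 and featureCounts 1.5.0-p3. No source used here gives the build, annotation release or strand setting. Of the 54409 gene identifiers of the table found in the GENCODE M21 annotation of GRCm38, 98.3% had the same start and end there, which is why positions are quoted on it. The authors deposited raw counts per gene (9877 genes) and FPKM values (54532 genes). When the authors' FPKM values were multiplied by gene length and a library constant, every value came out whole (within 0.01), and these are the recovered counts.

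Deposited counts were fitted with edgeR 4.0.16 (R 4.3.3; TMM, minimum count 10, robust quasi-likelihood model on all 9 libraries, 6 residual degrees of freedom). FPKM was fitted with limma 3.58.1 on log2(FPKM + 1) for 19318 genes with 0.1 FPKM or more in 3 libraries, and recovered counts with edgeR (15743 genes), a fit added after the tables had been compared. Benjamini-Hochberg adjustment covered every gene of a fit (threshold 0.05). A gene that differs between the tables is said to rise only where both sources pass. Alternatives were DESeq2 1.42.0, upper-quartile factors, other filters and pseudocounts, a replicate block and leaving out each library. The scripts were tested on simulated data.

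All 10 genes are named with every value; of each pathway list, up to 6 genes past the threshold, or else the 2 of smallest p; and the 5 genes of highest correlation. Other genes were named for the marker check (Retnlg, S100a8, S100a9, Mmp8, Hdc, Cxcr2, Csf3r, Ly6g, Camp, Ltf, Ngp, Cd14, Csf1r, Plac8, Lyz2, Ly6c2, Fcgr1, Ms4a4c, Ccr2, Ccr7, Ccl22, Cd209a, Batf3, Pecam1 and Emcn) or, as Casp1, chosen after their values were seen. Members and lists were chosen with earlier results of these data known, so a list's count is a description. Marker sums of the B cell (0.907 to 7.62 FPKM), mast cell and basophil (1.66 to 10.3), endothelial (5.14 to 15.5), carcinoma (19.0 to 44.6), fibroblast (173 to 309), dendritic cell (45.3 to 201) and macrophage (369 to 1029) lists were over all libraries. Counting error alone is covered by read numbers, and replicates of a group were not duplicates (at most 0.466% of genes with equal counts).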

Additional observations from a re-analysis of the deposited data

How the results depend on the processing

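Of 1026 results recomputed under an alternative, 945 kept their direction and side of the threshold, 41 kept the direction but lost the call and 9 gained it. A call could be lost only where a gene passed in a main fit, all between LILRB4 and WT. Those were 2 genes with deposited counts, 1 in FPKM and 3 with recovered counts, and all 41 losses fell on them. Most of the 945 had no call to lose, so they do not show how firmly the calls held. In 31 the sign turned with no call on either side, all of Il1b and Il1r2 (SCG2 knockout against WT), Il1r1 (SCG2 knockout against LILRB4), Il18 and Il1rap (LILRB4 against WT), whose differences were at most 0.16 in size. For LILRB4 against WT, the 2 genes past the threshold with deposited counts became 5 with DESeq2 (Il1b, Il1rn and Il1r2 added) and 1 when only the 2 groups were fitted, and 0 to 3 without 1 library. DESeq2 called 6.2% of 9876 genes higher and 3.16% lower in this comparison. Its Il1b and Il1r2 calls include counts that differ between the deposited tables. The 1 gene in FPKM became 2 with a pseudocount of 0.1, 0 with no filter, 3 with edgeR on recovered counts and 0 to 1 without 1 library. The 3 genes with recovered counts became 0 to 3 without 1 library. For SCG2 knockout against LILRB4, 0 became 2 with DESeq2 (Il1a and Il1b, lower), where 1.77% of 9876 genes were called lower. This Il1b call too includes the count of LILRB4 replicate 1 that differs. All other settings run for the knockout comparisons gave 0. With the replicate block 0 genes passed from each of the 3 sources, Il1a at a log2 fold change of 2.06 (edgeR adjusted p = 0.0625) and Nlrp3 at 1.13 (edgeR adjusted p = 0.0625). Of the 9 same-number pairs 3 correlated above 0.1 (-0.54 to 0.66), so the numbers did not pair the libraries throughout. Between LILRB4 and WT the same-number correlations were 0.66, 0.54 and -0.45 for replicates 1, 2 and 3. Whether the libraries of these 2 groups were paired is not given, so these correlations do not set aside the result with the block. Over all genes, the 222 calls of LILRB4 against WT (171 higher, 51 lower) were 264 with upper-quartile factors (136 higher, 128 lower), 924 with DESeq2, 212 with recovered counts of the same 9877 genes (178 higher, 34 lower), 137 with those of 15743 genes, 72 with only 2 groups, 1 with the block and 0 to 689 without 1 library. The 32 in FPKM were 0 with no filter or the block and 0 to 78 without 1 library; the 137 with recovered counts were 1 with the block and 0 to 623. For SCG2 knockout against LILRB4 over all genes, DESeq2 gave 187 where edgeR gave 0, and the 6 in FPKM were 2 with a pseudocount of 0.1 and 0 with no filter, the block or recovered counts; against WT DESeq2 gave 92 where edgeR gave 0. The cause of these changes was not tested. Depth limits the low genes: Il1bos rests on as few as 88 reads per library and Il18 on 47, and 3 libraries a group limit every test.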
